A study of Mus musculus with 18 samples.

Results

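Bone chip cultures from Col2.3GFP transgenic mice gave 6 of the 18 libraries of the series, and these 6 are described here for every gene of their count table. The transgene places green fluorescent protein under a fragment of the *Col1a1* promoter, so that sorting for GFP takes cells in which a type I collagen promoter is active. Pieces of bone were put through osteogenic differentiation, and the cells that grew were sorted. There were 3 libraries of the brightest cells, GFP+ (hi), labelled as osteoblasts, and 3 libraries of GFP- cells, labelled as a heterogeneous population. Both groups carried the transgene and went through the same culture, and the labels give neither the age, sex and strain of the mice nor the days in culture. The GFP+ (lo) cells of intermediate brightness were not analysed here. The 6 libraries were taken by these labels and not by a measured value, though with earlier results of these data known. The gene lists used below were also chosen with those results known. The sources do not state if the replicates of a group were separate animals or separate cultures. The p-values below therefore measure only the spread between these samples, which may be technical.

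Osteoblasts arise from mesenchymal progenitors, lay down a matrix rich in type I collagen and mineralize it. Some of them become buried in that matrix as osteocytes, which extend dendrites through the bone, secrete sclerostin and regulate phosphate through enzymes and acidic matrix proteins. Cells that grow out of cultured bone pieces include fibroblast-like and progenitor-like cells beside osteoblasts, and the GFP sort separates cells by reporter brightness and not by a surface marker of either kind.

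Total counts were 9829832 to 17553194 in GFP- cells and 13228266 to 15221973 in GFP+ (hi) cells. Of 16966 genes in the table, 12841 passed the filter on low counts and were tested with edgeR's quasi-likelihood test, and calls were made at a Benjamini-Hochberg adjusted p under 0.05. In GFP+ (hi) cells 2614 genes were higher, which is 20.4% of those tested, and 2967 were lower, which is 23.1%. These 2 percentages are the background for every count below. The median log2 fold change of all genes tested was -0.04. Of the genes called, 506 were more than 4-fold higher and 740 more than 4-fold lower. Levels are given as CPM, which are counts relative to library size after TMM scaling, in the order of replicates 1, 2 and 3. Every log2 fold change is GFP+ (hi) over GFP-, with its standard error after the ± sign. This standard error is an approximation, the absolute log2 fold change divided by the square root of the test's F statistic. Each group has n = 3 libraries. In sorted populations of this kind, fewer cells of a type and less RNA per cell cannot be told apart.

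The library of GFP- replicate 2 stood apart. Across genes its log2 CPM correlated with those of GFP- replicates 1 and 3 at r = 0.963 and r = 0.954, against 0.988 between replicates 1 and 3. The 3 GFP+ (hi) libraries correlated at 0.982 to 0.992. A list of 15 macrophage and leukocyte genes summed to 5423 CPM in GFP- replicate 2, to 613 and 452 CPM in GFP- replicates 1 and 3, and to 873, 1122 and 646 CPM in the GFP+ (hi) libraries. Each of the 15 genes was highest in that library, by 3.90 to 8.87 times the next highest. None of them was called between the groups by edgeR (lowest adjusted p = 0.162, 0 at an unadjusted p under 0.05). DESeq2 gave an adjusted p only for *C1qc*, *Emr1*, *Fcgr3* and *Laptm5* of this list and called none of them. It gave none for the other members, so it could not have called those. *Lyz2*, the lysozyme of myeloid cells, was at 312, 2622 and 233 CPM in GFP- cells and 461, 539.6 and 349 CPM in GFP+ (hi) cells. Leaving out GFP- replicate 2, 4 of the 15 passed as higher in GFP+ (hi) cells (*Lyz2*, *C1qa*, *Csf1r* and *Emr1*, with log2 fold changes of 0.72 to 0.99), so the direction of these genes turned with that library. Without it 2848 genes were higher and 3084 lower, and where leaving it out changes the call of a gene named below, or moves its fold change or a count by over 1.5 times, that value is given beside it. What part the cells behind this signal had in the other differences was not tested.

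**Figure D1:**
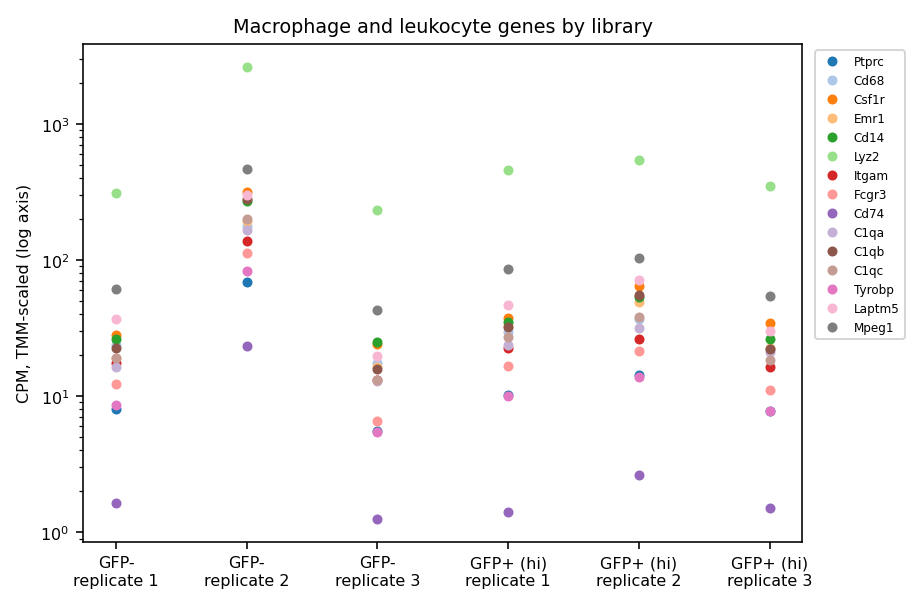
CPM of 15 macrophage and leukocyte genes (log axis) in each of the 6 libraries, 1 point per gene. All 15 genes are highest in GFP- replicate 2, with a summed level of 5423 CPM there and 452 to 1122 CPM elsewhere.

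**Figure D2:**
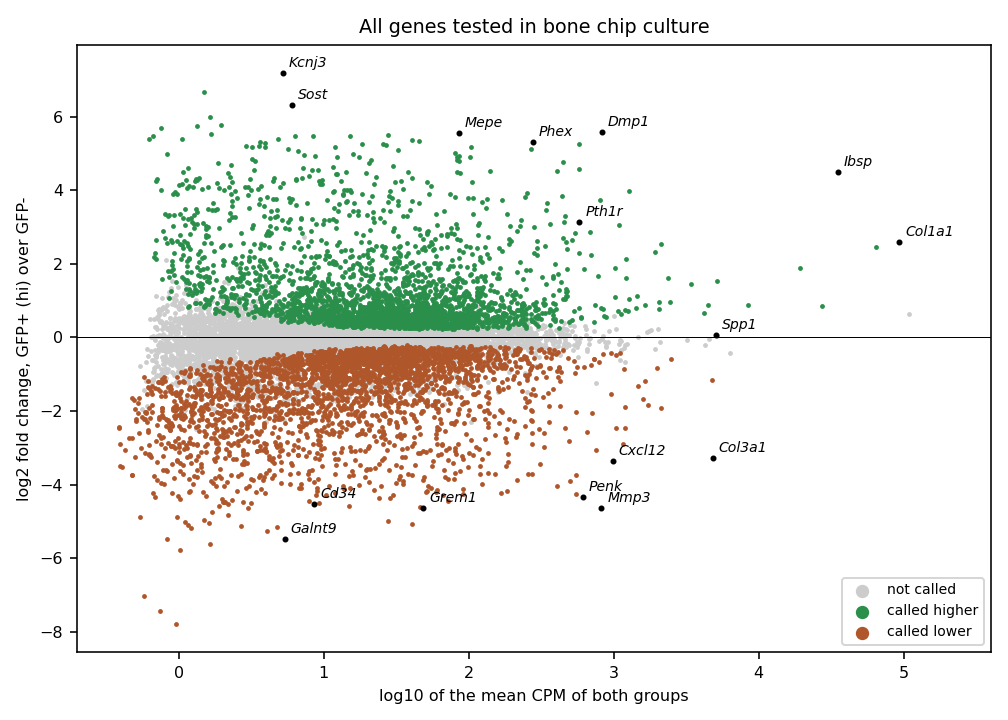
Log2 fold change of GFP+ (hi) over GFP- cells against the log10 of the mean CPM of both groups, 1 point for each of 12841 genes tested. Green points are the 2614 genes called higher and brown points the 2967 called lower, and black points are genes named in the text, *Spp1* among them with a value near 0.

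The sort was first checked on *Col1a1*, the gene of a type I collagen chain and the source of the reporter's promoter. *Col1a1* was at 28847, 25903 and 23844 CPM in GFP- cells and 160770.0, 141502 and 175020.0 CPM in GFP+ (hi) cells. It took 2.93 to 3.37% of all counts in GFP- cells and 12.1 to 14.4% in GFP+ (hi) cells, a log2 fold change of 2.6 ± 0.21 (adjusted p = 0.00013). The GFP- libraries thus still held a large amount of this transcript. Since its promoter drives the reporter, this difference is tied to the sort itself.

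The 3 osteocyte markers rose and the 2 markers of progenitors and of BMP inhibition fell, each with no overlap between the groups, against 20.4% of all genes called higher and 23.1% called lower. *Sost* encodes sclerostin, the Wnt inhibitor secreted by osteocytes, and had 0, 4 and 3 counts in the GFP- libraries against 66, 195 and 167 in the GFP+ (hi) libraries. On the CPM scale these were 0, 0.254 and 0.139 CPM and 6.25, 16.2 and 13.3 CPM, a log2 fold change of 6.31 ± 0.62 (adjusted p = 0.000324). *Sost* was thus close to absent from GFP- cells and low but present in each GFP+ (hi) library. With 7 GFP- counts in all, the ratio of the pooled counts was 84.9 with a 95% counting interval of 40.9 to 212, which covers counting error only. *Phex*, an endopeptidase needed for normal phosphate handling and mineralization, was at 10.2, 20.6 and 9.92 CPM in GFP- cells and 522, 586 and 506 CPM in GFP+ (hi) cells, a log2 fold change of 5.31 ± 0.32 (adjusted p = 5.41e-05). *Mepe*, an acidic phosphoglycoprotein of osteocytes, was at 1.48, 6.22 and 2.69 CPM and 146, 141 and 213 CPM, a log2 fold change of 5.56 ± 0.48 (adjusted p = 0.000181). For all 3 genes the highest GFP- value was that of replicate 2, and without it their log2 fold changes were 6.91, 5.73 and 6.22.

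Markers of the other side fell. *Cd34*, a surface glycoprotein of stromal and vascular progenitors, was at 17.2, 17.5 and 14.7 CPM in GFP- cells and 0.663, 0.996 and 0.478 CPM in GFP+ (hi) cells, and it fell by 4.52 ± 0.24 on the log2 scale (adjusted p = 3.55e-05). *Grem1*, a secreted antagonist of bone morphogenetic proteins (BMPs) made by skeletal progenitors, was at 92.2, 80.4 and 109 CPM and 4.07, 3.74 and 3.43 CPM, and it fell by 4.65 ± 0.15 (adjusted p = 1.73e-05). Each GFP+ (hi) library held some counts of both genes, and the spread within a group was small beside the gap between groups. Which cells of the sorted population these counts came from was not tested.

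**Figure D3:**
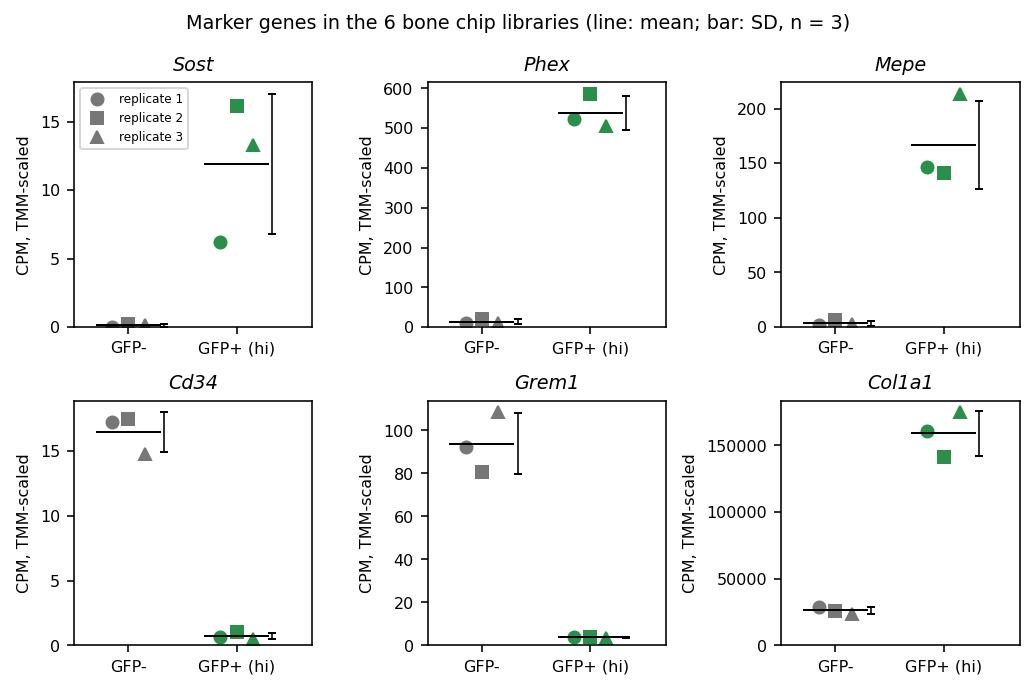
CPM of *Sost*, *Phex*, *Mepe*, *Cd34*, *Grem1* and *Col1a1* in each library, by group, with 1 symbol per replicate number. The horizontal line is the mean and the bar the SD of 3 libraries, the axes start at 0, and in no panel do the groups overlap.

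The sequences before the starts of 4 of these genes are shown because RUNX2, which switches on the osteoblast programme, acts through a short motif (TGTGGT, or ACCACA on the other strand) in promoters of bone genes. *Sost*, *Mepe* and *Bglap* (osteocalcin) rose and *Grem1* fell. Each run is the 250 bases before the RefSeq start in the sense of the gene (table of build GRCm38.p6), with the motif in capitals, and an exact match placed it in mm9, the build of the files. The windows are chr11:101828330-101828579 (minus strand) for *Sost*, chr5:104754098-104754347 (plus) for *Mepe*, chr3:88188389-88188638 (minus) for *Bglap* and chr2:113598806-113599055 (minus) for *Grem1*. None overlaps an annotated exon of GENCODE vM1.
Sost: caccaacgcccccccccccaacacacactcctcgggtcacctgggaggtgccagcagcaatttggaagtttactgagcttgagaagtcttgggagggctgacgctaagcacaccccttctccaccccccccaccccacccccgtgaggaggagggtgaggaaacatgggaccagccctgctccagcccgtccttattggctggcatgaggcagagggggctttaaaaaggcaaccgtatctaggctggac
Mepe: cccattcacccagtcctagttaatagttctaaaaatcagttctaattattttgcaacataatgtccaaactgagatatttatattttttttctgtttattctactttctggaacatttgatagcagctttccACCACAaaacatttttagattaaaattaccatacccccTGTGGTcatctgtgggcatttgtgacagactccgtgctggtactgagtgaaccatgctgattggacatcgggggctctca
Bglap: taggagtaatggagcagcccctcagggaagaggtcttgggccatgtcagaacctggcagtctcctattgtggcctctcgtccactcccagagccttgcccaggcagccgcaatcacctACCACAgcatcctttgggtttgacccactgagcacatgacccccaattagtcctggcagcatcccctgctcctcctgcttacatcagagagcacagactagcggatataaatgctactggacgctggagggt
Grem1: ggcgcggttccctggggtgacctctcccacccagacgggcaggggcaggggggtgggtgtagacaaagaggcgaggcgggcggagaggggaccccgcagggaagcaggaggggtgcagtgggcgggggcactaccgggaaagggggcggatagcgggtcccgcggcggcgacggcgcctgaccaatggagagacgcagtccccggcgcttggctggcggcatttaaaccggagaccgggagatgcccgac
*Mepe* held the motif at 118 and 80 bases and *Bglap* at 132 bases before the start, and the windows of *Sost* and *Grem1* did not hold these letters. Over the genome 14.0% of 32851 such windows held the motif, as did 10.7% of the windows of genes tested, 10.1% of those of genes called higher and 10.9% of those of genes called lower. The match is a description of the letters alone.

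Osteocyte genes were mostly higher in GFP+ (hi) cells. Of 20 genes listed 18 were tested, and 12 were higher and 6 lower, with a median log2 fold change of 1.65. The rises included *Dmp1*, an acidic matrix protein needed for phosphate balance, at 20.7, 47.6 and 32.8 CPM in GFP- cells and 1343, 1163 and 2348 CPM in GFP+ (hi) cells (5.58 ± 0.44). *Ptprz1*, a receptor tyrosine phosphatase, rose from 22, 45.7 and 19.7 CPM to 1102, 1225 and 1036 CPM (5.27 ± 0.37). *Enpp6*, a choline phosphodiesterase, was at 1.57, 1.27 and 1.11 CPM and 51.9, 50.8 and 46.5 CPM (5.26 ± 0.14), with the smallest standard error among these large rises. *Dkk1*, a secreted Wnt inhibitor, remained low but rose by 4.47 ± 0.39, and *Irx5*, a homeobox factor, rose by 2.4 ± 0.14. *Cd44*, a hyaluronan receptor, and *Gja1*, the connexin 43 of gap junctions between osteocytes, rose by less (0.91 ± 0.13 and 0.71 ± 0.10).

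*Cadm1*, an adhesion molecule, shows how 1 library can set the size of a change. It was at 9.49, 38.3 and 8.86 CPM in GFP- cells and 212, 179 and 194 CPM in GFP+ (hi) cells. Its log2 fold change was 3.37 ± 0.58 with all libraries and 4.4 without GFP- replicate 2.

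Against these rises, 6 listed osteocyte genes fell. *Pdpn* (podoplanin), a membrane protein of early osteocytes forming dendrites, was at 108, 86.3 and 148 CPM in GFP- cells and 26.3, 33.2 and 40.7 CPM in GFP+ (hi) cells and fell by 1.77 ± 0.24. *Kcnk2*, a mechanosensitive potassium channel, fell by 2.2 ± 0.25, *Ank*, which exports pyrophosphate, by 1.43 ± 0.21, and *Slc20a1*, a phosphate transporter, by 1.96 ± 0.18. The others were *Mmp14*, whose call ended without GFP- replicate 1 or GFP+ (hi) replicate 1 (adjusted p = 0.0543 to 0.0548), and *Tnfsf11*, described with the signals to osteoclasts. Without GFP- replicate 1 the number of listed genes called lower was 4. *Fgf23*, the phosphate-regulating hormone of osteocytes, did not pass the filter on low counts, with 0, 0.0635 and 0 CPM in GFP- cells and 0.189, 0 and 0.239 CPM in GFP+ (hi) cells, so a difference was not detectable at this depth.

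Acidic phosphoproteins of bone and tooth form a gene family on chromosome 5 of mm9 (*Dspp*, *Dmp1*, *Ibsp*, *Mepe* and *Spp1*, in that order on the plus strand from 104599731 to 104870069), and its members differed in response. *Ibsp*, bone sialoprotein, was at 2354, 3989 and 2628 CPM in GFP- cells and 68278, 63287 and 70117 CPM in GFP+ (hi) cells (4.49 ± 0.27, adjusted p = 5.01e-05). *Dmp1* at 104631632 to 104643121 and *Mepe* at 104754348 to 104767630 flank *Ibsp* at 104728190 to 104740488, and all of them rose by more than 4 on the log2 scale. *Spp1* at 104864137 to 104870069 encodes osteopontin, which many cell types make besides osteoblasts. It was at 4662, 3587 and 6597 CPM and 4841, 4156 and 6499 CPM, a log2 fold change of 0.06 ± 0.27 (adjusted p = 0.87), and its GFP+ (hi) values lay within the range of the GFP- values.

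Genes of bone matrix and mineralization had the highest median of the lists with at least 6 members tested, 1.88. Of 29 tested 20 were higher, 4 lower and 5 not called. Among genes for making mineral, *Phospho1*, a phosphatase of matrix vesicles, was at 2.53, 3.05 and 4.41 CPM in GFP- cells and 56.4, 37.3 and 67.7 CPM in GFP+ (hi) cells (3.98 ± 0.30). *Alpl*, the tissue-nonspecific alkaline phosphatase that removes pyrophosphate, was at 621, 682 and 574 CPM and 3762, 3727 and 3384 CPM (2.53 ± 0.12). *Smpd3* and *Sgms2*, enzymes of sphingomyelin metabolism needed for mineralization, rose by 2.62 ± 0.17 and 3.73 ± 0.15.

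In the same cells 2 inhibitors of mineralization fell. *Enpp1*, which makes pyrophosphate, was at 167, 85.5 and 178 CPM in GFP- cells and 13.8, 13.9 and 13 CPM in GFP+ (hi) cells and fell by 3.4 ± 0.29 (adjusted p = 0.000169). *Mgp*, matrix Gla protein, was at 249.8, 127 and 298 CPM and 23.7, 18.5 and 26.2 CPM and fell by 3.3 ± 0.33. GFP- replicate 2 had the lowest GFP- value of both genes, and the groups did not overlap. *Omd* (osteomodulin), a leucine-rich proteoglycan, fell by 2.44 ± 0.19. The fourth gene called lower was *Slc20a2* (-0.56, adjusted p = 0.0262), a call that ended without GFP- replicate 1 or 3 or without GFP+ (hi) replicate 1 or 2 (adjusted p = 0.0717 to 0.0961).

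Other members of this list rose as well. *Ifitm5*, a small membrane protein particular to osteoblasts, was at 2.96, 3.94 and 2.88 CPM in GFP- cells and 71.9, 49.9 and 98.4 CPM in GFP+ (hi) cells (4.49 ± 0.29). *Panx3*, a channel protein of osteoblasts and chondrocytes, rose by 3.84 ± 0.15, and the minor fibrillar collagens *Col24a1*, *Col11a2*, *Col11a1* and *Col5a1* rose by 3.8 ± 0.19, 3.06 ± 0.13, 1.62 ± 0.15 and 1.45 ± 0.11. *Sparc* (osteonectin), which binds collagen and calcium, rose by 1.88 ± 0.15. *Bglap* was at 21, 46.9 and 29.6 CPM and 376, 310.3 and 694 CPM (3.82 ± 0.42), and its near-identical neighbour *Bglap2* rose by 3.53 ± 0.44. How reads that match both of these genes were counted is not given in the sources used here, so their separate values are uncertain. Members that did not pass were *Spp1*, *Bgn* (-0.06), *Tnn* (-0.26), *Lox* (-0.42, but called lower at -0.61 without GFP- replicate 2, adjusted p = 0.00978) and *Cthrc1* (0.69, adjusted p = 0.064, and 0.0166 with a block for the replicate number).

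Transcription factors of the osteoblast lineage went both ways. Of 27 tested 14 were higher, 10 lower and 3 not called (median log2 fold change 0.32). *Sp7* (osterix), the factor needed after commitment to the lineage, was at 21.8, 18 and 20.9 CPM in GFP- cells and 107, 86.5 and 132 CPM in GFP+ (hi) cells (2.42 ± 0.17). *Runx2*, the master factor of osteoblasts, was at 86.5, 76.9 and 77.5 CPM and 199.6, 175 and 219 CPM (1.3 ± 0.11), so its rise was smaller than that of *Sp7* and its transcript was plainly present in GFP- cells. *Mef2c*, an activator of the *Sost* gene, rose by 3.01 ± 0.15, *Dlx3* by 3.16 ± 0.16, *Creb3l1*, which drives secretory genes in osteoblasts, by 2.39 ± 0.13, and *Dlx5* by 1.17 ± 0.16.

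Several factors of less mature mesenchyme fell. *Twist1*, which restrains RUNX2, was at 43.1, 39.4 and 39.7 CPM in GFP- cells and 15.9, 13.4 and 20.2 CPM in GFP+ (hi) cells and fell by 1.3 ± 0.15. *Prrx1* and *Prrx2*, homeobox factors of limb mesenchyme, fell by 1.08 ± 0.17 and 2.04 ± 0.10, *Osr1* by 2.56 ± 0.13 and *Runx1* by 1.98 ± 0.22. *Sox9*, the factor of chondrocytes and skeletal progenitors, fell by 0.88 ± 0.12. *Msx2* and *Lef1* fell from levels under 5 CPM. Thus *Runx2* and *Runx3* (2.38 ± 0.24) rose in the same population in which *Runx1* fell.

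Genes of progenitors and fibroblasts had the lowest median of the lists with at least 6 members tested, -2.64. Of 34 tested 30 were lower, 2 higher and 2 not called, and without GFP- replicate 2 the number lower was 31. *Col3a1*, type III collagen of soft connective tissue, was at 9247, 6892 and 10036 CPM in GFP- cells and 902, 837 and 969 CPM in GFP+ (hi) cells and fell by 3.27 ± 0.18 (adjusted p = 4.15e-05). *S100a4*, a calcium-binding protein of fibroblasts, was at 356, 318 and 354 CPM and 29.7, 30.5 and 37.3 CPM and fell by 3.39 ± 0.12, with narrow spread in both groups. *Ogn* (osteoglycin) and *Efemp1* (fibulin 3), extracellular matrix proteins, fell by 3.91 ± 0.36 and 4.1 ± 0.24. The receptors of platelet-derived growth factor that mark mesenchymal progenitors, *Pdgfra* and *Pdgfrb*, fell by 1.74 ± 0.25 and 2.65 ± 0.24. *Ly6a* (Sca-1), a stem cell antigen, fell by 1.39 ± 0.19, and *Thy1* (CD90) by 3.2 ± 0.29. *Gli1*, a target of hedgehog signalling, fell by 2.54 ± 0.31 from at most 3.05 CPM.

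The 2 listed genes that rose were *Col15a1*, a basement membrane collagen, at 8.36, 14.1 and 5.7 CPM in GFP- cells and 163, 158 and 94 CPM in GFP+ (hi) cells (3.89 ± 0.38), and *Fn1* (fibronectin, 0.84 ± 0.20). The *Fn1* call ended without GFP+ (hi) replicate 1 (adjusted p = 0.0578), which left 1 gene called higher. *Eng* (-0.11) and *Nt5e* (-0.41), 2 further markers of cultured stromal cells, did not pass, but *Nt5e* was called lower without GFP- replicate 2 (-0.66, adjusted p = 0.0193).

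Most collagen processing genes that passed were higher in GFP+ (hi) cells. Of 25 tested 14 were higher, 3 lower and 8 not called (median log2 fold change 0.48). The prolyl 4-hydroxylase subunits *P4ha1* and *P4ha2*, which stabilize the helix, rose by 1.88 ± 0.16 and 1.62 ± 0.18, and *P4hb* by 0.87 ± 0.10. *P4ha3*, the third α subunit, was at 89.6, 63.7 and 94.9 CPM in GFP- cells and 10.3, 7.72 and 9.89 CPM in GFP+ (hi) cells and fell by 3.15 ± 0.19. The groups did not overlap for any of these 4 genes, and *P4ha3* moved against the other subunits. Among lysyl oxidases, which start the cross-links, *Loxl4* was at 132, 202 and 123 CPM and 2359.9, 2987 and 1798 CPM (3.97 ± 0.28), and *Loxl2* rose by 2.24 ± 0.17. *Loxl1* was at 206, 134 and 199 CPM and 21.1, 17.5 and 22.1 CPM and fell by 3.15 ± 0.20. *Serpinh1* (HSP47) and *Fkbp10*, chaperones of procollagen, rose by 0.95 ± 0.13 and 1.3 ± 0.11, and the procollagen C-proteinase *Bmp1* by 1.99 ± 0.22. *Pcolce*, an enhancer of that proteinase, fell by 0.59 ± 0.15, a call that ended without GFP- replicate 1 or GFP+ (hi) replicate 1 (adjusted p = 0.0579 to 0.0656).

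Matrix proteases and their inhibitors went both ways, with 8 of 26 tested higher, 10 lower and 8 not called, and a median log2 fold change of 0.04. *Mmp13*, the collagenase of osteoblasts and hypertrophic cartilage, was at 2640.1, 1912 and 3342 CPM in GFP- cells and 7098, 7186 and 8721 CPM in GFP+ (hi) cells (1.54 ± 0.22). *Mmp3* (stromelysin 1), which fibroblasts make, was at 1232, 749.7 and 2747 CPM and 55.5, 48.1 and 86.7 CPM and fell by 4.63 ± 0.55 (adjusted p = 0.000706). *Mmp3* varied by more than 3 times among GFP- libraries, yet the lowest GFP- value lay above every GFP+ (hi) value. Its log2 fold change was -3.95 without GFP- replicate 3. *Adamts15* and *Adam12* rose by 4.26 ± 0.28 and 3.75 ± 0.23, and *Timp2* and *Timp3*, tissue inhibitors of metalloproteinases, fell by 1.54 ± 0.14 and 2.58 ± 0.24.

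Transport from the endoplasmic reticulum (ER) to the Golgi, the route that procollagen takes, was represented by genes that were mostly higher in GFP+ (hi) cells, by small amounts. Of 43 genes tested 34 were higher, 0 lower and 9 not called by edgeR (median log2 fold change 0.50). At an unadjusted p under 0.05, and by DESeq2, 0 were lower. The study drew its trafficking genes from lists made with these samples. The 15 of them whose knockdown its text names for an effect were all higher here, which is not independent evidence of their direction. Of the 28 other members 19 were higher and 9 not called, with a median of 0.39 and values of 0.24 to 0.93 for those called. Some of these 28 may also be on the study's lists, which was not checked, so they are not independent evidence either. *Mia3* (TANGO1), which loads procollagen into carriers, was at 159.8, 149 and 168 CPM in GFP- cells and 269.8, 266 and 269 CPM in GFP+ (hi) cells (0.75 ± 0.08). *Sec24d*, a cargo-binding subunit of the COPII coat, was at 177, 150.0 and 179 CPM and 279, 268 and 317 CPM (0.77 ± 0.11). Both changes are under 2-fold, and the libraries of each group lay close together. Among these 15 genes *Ramp1*, which partners a peptide receptor at the cell surface, rose the most, from 6.36, 8.32 and 5.24 CPM to 71.5, 71.7 and 74.8 CPM (3.46 ± 0.17). The COPII genes *Sec24b* (0.03) and *Sec24c* (-0.09) did not pass. Leaving out 1 library gave 29 to 33 genes higher, and 31 without GFP- replicate 2.

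Most genes of ER chaperones and stress did not pass. Of 26 genes of ER chaperones and stress 9 were higher, 0 lower and 17 not called by edgeR, and the median log2 fold change was 0.13. At an unadjusted p under 0.05 2 were lower, and by DESeq2 2. The chaperone *Hspa5* (BiP) was at 1129, 1274 and 1080.1 CPM in GFP- cells and 1137, 1451 and 673 CPM in GFP+ (hi) cells, a log2 fold change of -0.09 ± 0.26 (adjusted p = 0.795). Its groups overlapped, with GFP+ (hi) replicate 3 the lowest of all. Among the genes that rose were *Xbp1* and *Atf4*, transcription factors of the unfolded protein response, by 0.75 ± 0.08 and 0.70 ± 0.08, *Herpud1*, of ER-associated degradation, by 1.16 ± 0.16, the co-chaperone *Dnajb9* by 0.88 ± 0.11, and the stress factor *Atf3* by 2.04 ± 0.38. *Atf3* was at 52.9, 142 and 68.7 CPM and 339, 295 and 451 CPM, with GFP- replicate 2 above the other GFP- libraries, and its log2 fold change was 2.56 without that library. Without GFP- replicate 2, 3 genes of this list passed as lower.

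Among BMP genes, several ligands rose and most of the antagonists fell. BMPs are secreted factors that drive bone formation, and antagonists bind them outside the cell. Of 14 genes for BMPs and related ligands 5 were higher, 2 lower and 7 not called (median log2 fold change 0.02). *Bmp3*, a family member that dampens bone formation, was at 5.4, 6.54 and 4.45 CPM in GFP- cells and 198, 140.1 and 162 CPM in GFP+ (hi) cells (4.93 ± 0.20). *Bmp2*, a strong inducer of bone, was at 6.88, 9.97 and 14.5 CPM and 101, 98.3 and 128 CPM (3.36 ± 0.27). *Bmp8b* and *Bmp8a* rose by 5.49 ± 0.34 and 4.91 ± 0.31. They are close relatives and neighbours on chromosome 4, so reads that match both could move counts between them. *Bmp4* (0.08), *Bmp7* (-0.04) and *Bmp6* (-0.72) did not pass. *Gdf10* was at 52.2, 42 and 65.9 CPM and 1.42, 2.57 and 1.04 CPM and fell by 4.99 ± 0.32. With a block for the replicate number 4 ligands were lower, *Inhba* and *Inhbb* being added (adjusted p = 0.0434 and 0.0263 there, 0.279 and 0.454 without it). Both encode activin subunits and not BMPs.

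Of 12 BMP antagonists 7 were lower, 2 higher and 3 not called (median log2 fold change -1.44). Besides *Grem1*, the secreted antagonists *Chrdl1* and *Nbl1* fell by 3.45 ± 0.28 and 3.52 ± 0.25, and *Fst* (follistatin), which binds activins, by 1.84 ± 0.19. *Nog* (noggin), which BMP signalling itself induces, went the other way, from 3.57, 4.57 and 5.75 CPM to 16.9, 17.8 and 21.7 CPM (2.0 ± 0.20). Of 8 targets of the pathway 2 were higher, 3 lower and 3 not called, against 20.4% of all genes tested higher and 23.1% lower. With so few genes these counts are not read as a result about the pathway. *Bambi*, a decoy receptor, was at 10.4, 17.6 and 11.6 CPM and 194, 179 and 178 CPM (3.8 ± 0.21), while *Id1* and *Id2* fell by 0.75 ± 0.11 and 1.36 ± 0.15. *Smad9*, the other target called higher (0.79), was no longer called without GFP- replicate 1 or without any 1 of the GFP+ (hi) libraries (adjusted p = 0.0686 to 0.109), and without GFP+ (hi) replicate 3 the number of targets lower was 5.

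Wnt genes moved in both directions among inhibitors and among ligands. Wnt proteins promote bone formation through the receptors Lrp5 and Lrp6. Of 17 Wnt antagonists 7 were higher, 6 lower and 4 not called (median log2 fold change -0.19). With *Sost* and *Dkk1*, *Wif1*, which binds Wnt proteins directly, rose from 36.1, 29.9 and 40.3 CPM to 269, 180.5 and 263 CPM (2.74 ± 0.19), and *Rnf43*, which removes Wnt receptors from the surface, rose by 4.16 ± 0.34. Other secreted inhibitors fell. *Dkk3* was at 465, 407 and 351 CPM and 79.1, 64.3 and 87.6 CPM and fell by 2.4 ± 0.16, and *Dkk2* and *Sfrp1* fell by 2.83 ± 0.37 and 1.51 ± 0.23.

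Among 23 Wnt ligands and receptors tested 9 were higher, 10 lower and 4 not called (median log2 fold change -0.33). *Lrp4*, a receptor that anchors sclerostin, was at 81.4, 68.9 and 59.2 CPM in GFP- cells and 266, 232 and 279 CPM in GFP+ (hi) cells (1.89 ± 0.14). *Wnt5b* and *Wnt10b* rose by 2.48 ± 0.10 and 1.66 ± 0.15. *Wnt10a* was at 7.93, 7.43 and 8.35 CPM and 0.0947, 0.415 and 0.0797 CPM, with 7 counts in all 3 GFP+ (hi) libraries. Its pooled ratio was 39.9 times higher in GFP- cells (95% counting interval 19.2 to 99.9), and its fitted log2 fold change of -5.25 was -6.37 without GFP+ (hi) replicate 2. R-spondins amplify Wnt signals through receptors of the Lgr family. *Rspo2* was at 71.7, 50.1 and 65.9 CPM and 7.01, 7.55 and 5.1 CPM and fell by 3.26 ± 0.20, and *Rspo3* fell by 3.18 ± 0.57 (log2 fold change -2.57 without GFP- replicate 3). Of their receptors, *Lgr5* fell by 2.98 ± 0.19, *Lgr6* rose by 2.57 ± 0.39 (3.18 without GFP- replicate 3) and *Lgr4* rose by 0.66 ± 0.18. The *Lgr4* call ended without GFP- replicate 1, GFP+ (hi) replicate 1 or GFP+ (hi) replicate 3 (adjusted p = 0.0638 to 0.0716). *Lrp5* rose by 0.53 ± 0.11 and *Lrp6* fell by 0.43 ± 0.09, both under 2-fold.

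**Figure D4:**
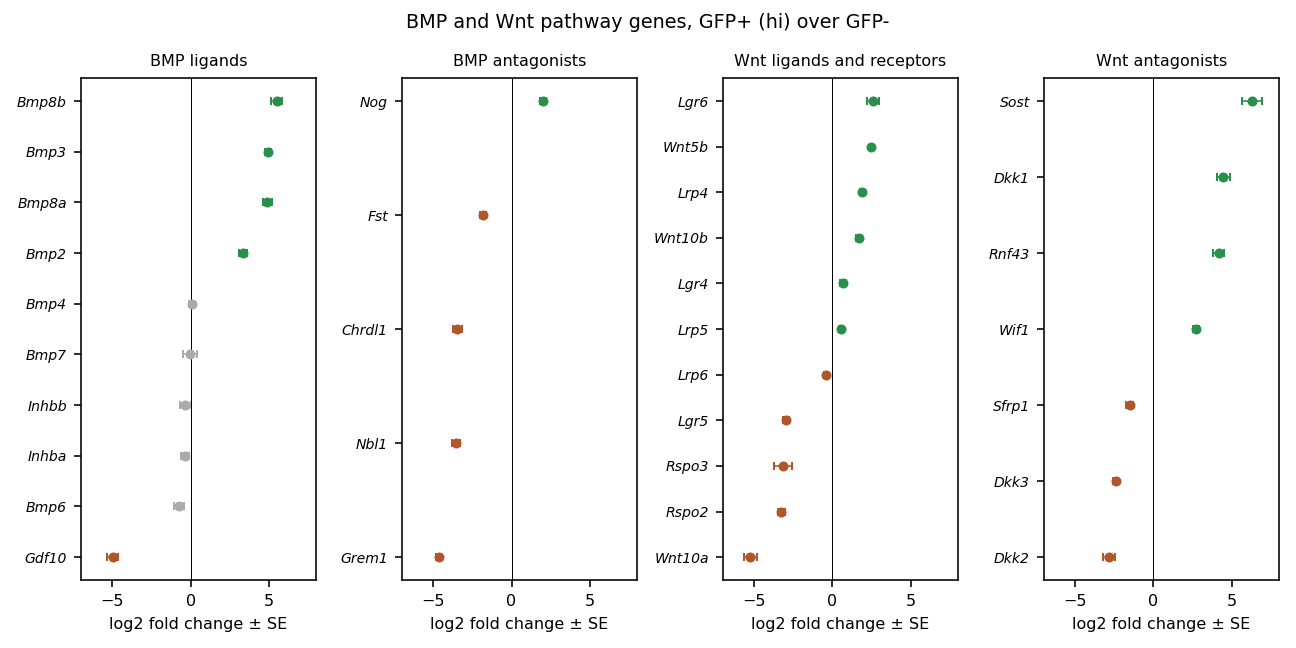
Log2 fold change ± SE of GFP+ (hi) over GFP- cells for the BMPs and related ligands, BMP antagonists, Wnt ligands and receptors, and Wnt antagonists named in the text, with 3 libraries per group. Green points were called higher, brown points lower and grey points not called. *Bmp8b*, *Bmp3* and *Sost* lie far to the right, and *Grem1*, *Gdf10* and *Wnt10a* far to the left.

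Genes of the cell cycle were lower in GFP+ (hi) cells. Of 30 tested 28 were lower, 1 higher and 1 not called (median log2 fold change -1.85). *Mki67*, a protein of dividing cells, was at 71, 99.9 and 110.1 CPM in GFP- cells and 18, 18.5 and 26.5 CPM in GFP+ (hi) cells and fell by 2.16 ± 0.22 (adjusted p = 0.000365). *Ccna2* (cyclin A2) was at 16.1, 14.7 and 25.7 CPM and 2.37, 2.24 and 4.47 CPM and fell by 2.63 ± 0.34. Each GFP+ (hi) library still held these transcripts. Among genes of DNA synthesis, *Mcm4* fell by 1.08 ± 0.14, *Mcm2* by 1.24 ± 0.14, *Mcm5* by 2.06 ± 0.21, and *Rrm2*, a subunit of ribonucleotide reductase, by 2.48 ± 0.34, while *Pcna* (-0.36, adjusted p = 0.0867) did not pass. *Ccne2* (cyclin E2), the gene called higher, was under 4 CPM in every library, and its call ended without GFP+ (hi) replicate 1 or 2 (adjusted p = 0.0788 to 0.0838).

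Inhibitors of the cycle were split, with 3 of 10 higher, 4 lower and 3 not called. *Cdkn1a* (p21) was at 200.3, 284 and 191 CPM in GFP- cells and 651, 589 and 684 CPM in GFP+ (hi) cells (1.51 ± 0.17). *Cdkn2a*, which encodes p16 and p19ARF, rose by 1.45 ± 0.14, and *Rb1*, the retinoblastoma protein, by 1.6 ± 0.10. *Cdkn2c* (p18) was at 23.3, 22.6 and 25.2 CPM and 2.27, 3.15 and 2.71 CPM and fell by 3.12 ± 0.15, and *Cdkn1c* (p57) fell by 1.61 ± 0.27.

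Ion channels included the single largest rise by the size rule, that of *Kcnj3*, a G protein-gated potassium channel. *Kcnj3* had 0, 3 and 0 counts in GFP- libraries and 103, 125 and 137 in GFP+ (hi) libraries, or 0, 0.19 and 0 CPM and 9.75, 10.4 and 10.9 CPM. Its pooled ratio was 169 with a 95% counting interval of 57.4 to 823, and the fitted log2 fold change of 7.19 ± 0.59 depends on the prior count and was 10.14 without GFP- replicate 2. Of 31 channels tested 16 were higher, 7 lower and 8 not called (median log2 fold change 0.33). *Scn1a*, a voltage-gated sodium channel better known from neurons, was at 1.48, 3.24 and 1.86 CPM and 84.6, 80 and 102 CPM (5.32 ± 0.27). *Kcnk1*, a leak potassium channel, was at 2.79, 7.24 and 4.31 CPM and 167, 128 and 170.4 CPM (5.0 ± 0.33), and *Ano1* and *Kcnma1* rose by 3.91 ± 0.17 and 2.67 ± 0.19. The 2 mechanosensitive Piezo channels differed. *Piezo2* was at 72.7, 54.4 and 49.8 CPM and 3.69, 5.81 and 1.91 CPM and fell by 3.95 ± 0.36. *Piezo1*, which senses load in osteocytes, was at 236, 200.1 and 227 CPM and 263, 269.6 and 289 CPM, and its call (0.31, adjusted p = 0.038) ended when any 1 library was left out (adjusted p = 0.0580 to 0.0948). *Scn3a* was not called (adjusted p = 0.102) but passed with a block for the replicate number (adjusted p = 0.0117).

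Receptors for hormones were led by *Pth1r*, the receptor of parathyroid hormone. It was at 117, 126 and 113 CPM in GFP- cells and 1068, 1007 and 1047 CPM in GFP+ (hi) cells, a log2 fold change of 3.13 ± 0.10 (adjusted p = 1.73e-05), with little spread in either group. *Vdr*, the vitamin D receptor, rose by 1.16 ± 0.19, and *Ghr* and *Igf1r*, receptors of growth hormone and insulin-like growth factor 1, by 0.80 ± 0.12 and 0.83 ± 0.13. *Calcrl*, a receptor of calcitonin gene-related peptide that works with *Ramp1*, was at 8.36, 9.9 and 16.1 CPM and 1.89, 2.66 and 1.91 CPM and fell by 2.41 ± 0.30. In all 7 of 15 were higher, 6 lower and 2 not called (median -0.08). Without GFP+ (hi) replicate 1 these counts were 4 higher and 3 lower, and without GFP- replicate 3 the number lower was 3. *Nr3c1*, the glucocorticoid receptor, did not pass (-0.14).

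Axon guidance and neuronal adhesion genes were called in both directions. Of 36 tested 17 were higher, 13 lower and 6 not called (median log2 fold change 0.08). Within the class 3 semaphorins, secreted guidance cues, *Sema3d* was at 7.06, 6.29 and 4.68 CPM in GFP- cells and 122, 101 and 88.2 CPM in GFP+ (hi) cells (4.12 ± 0.20). *Sema3c* was at 70.4, 84.3 and 78.8 CPM and 5.02, 11.3 and 4.63 CPM and fell by 3.48 ± 0.33, and *Sema3a*, which protects bone, fell by 2.99 ± 0.14. The netrin receptors parted likewise, *Unc5b* rising by 2.29 ± 0.11 and *Unc5c* falling by 2.92 ± 0.30 on the log2 scale. *Slit2*, *Sema5a* and *Cdh2* (N-cadherin) rose by 3.13 ± 0.20, 3.36 ± 0.14 and 2.49 ± 0.18. *Sema4d* was at 5.31, 28.5 and 4.13 CPM and 91.7, 96.2 and 81 CPM, with the highest GFP- value in replicate 2. Its log2 fold change was 2.82 ± 0.70, and 4.27 without that library.

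Inflammatory genes were lower in GFP+ (hi) cells. Of 24 tested 20 were lower, 1 higher and 3 not called (median log2 fold change -2.29), and without GFP- replicate 2 the number lower was 21. *Cxcl12*, the chemokine of marrow stroma, was at 2157, 1197 and 2024 CPM in GFP- cells and 179, 180.3 and 170.1 CPM in GFP+ (hi) cells and fell by 3.34 ± 0.24 (adjusted p = 8.60e-05). *Il1rl1*, the receptor of interleukin 33, was at 401, 224 and 327 CPM and 19, 17 and 15 CPM and fell by 4.22 ± 0.24. *Il6* was at 97.9, 62 and 231 CPM and 9.18, 5.23 and 24.2 CPM and fell by 3.34 ± 0.70. The neutrophil chemokine *Cxcl5*, the complement component *C3* and the adhesion molecule *Vcam1* fell by 4.18 ± 0.51, 2.6 ± 0.21 and 3.01 ± 0.23. The log2 fold change of *Il6* was -4.18 without GFP+ (hi) replicate 3, and that of *Cxcl5* -3.49 without GFP- replicate 3. *Cxcl2* had its highest value in GFP- replicate 2 (188, 761 and 349.6 CPM in GFP- cells, 87.6, 125 and 115 CPM in GFP+ (hi) cells). It fell by 1.99 ± 0.48 with all libraries, while its log2 fold change was -1.31 without GFP- replicate 2, and the call ended without GFP+ (hi) replicate 1 (adjusted p = 0.0620). *Lcn2*, an iron-binding protein of inflammation, ranged from 33.9 to 398 CPM within GFP- cells and was not called (adjusted p = 0.0772, and 0.0198 with a block for the replicate number). Without GFP- replicate 2 it was called lower (-2.8, adjusted p = 0.00901).

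Genes for signals to osteoclasts were mostly lower in GFP+ (hi) cells. Of 11 genes 7 were lower, 1 higher and 3 not called (median log2 fold change -1.58). *Csf1* (M-CSF), a growth factor of osteoclast precursors, was at 629, 493 and 649.7 CPM in GFP- cells and 111, 115 and 137 CPM in GFP+ (hi) cells and fell by 2.29 ± 0.15 (adjusted p = 6.17e-05). *Tnfsf11* (RANKL), the main inducer of osteoclasts, was at 30.7, 18.4 and 48.8 CPM and 4.54, 2.32 and 12.8 CPM, a log2 fold change of -2.31 ± 0.62 (adjusted p = 0.0215). This call ended without GFP- replicate 1, GFP- replicate 3 or GFP+ (hi) replicate 1 (adjusted p = 0.0504 to 0.0843), and the log2 fold change was -3.26 without GFP+ (hi) replicate 3. *Tnfrsf11b* (osteoprotegerin), the decoy of RANKL, was at 128, 53.1 and 141 CPM and 70.2, 46.9 and 55.3 CPM and did not pass (adjusted p = 0.081, and 0.0311 with a block for the replicate number). Without GFP- replicate 2 it was called lower (-1.24, adjusted p = 0.00063). *Il34*, a second ligand of the M-CSF receptor, fell by 3.05 ± 0.20. *Tgfb1* rose by 1.12 ± 0.14. The number lower was 4 without GFP- replicate 3 or without GFP+ (hi) replicate 1.

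Immediate early genes, which respond within minutes to handling and growth factors, had 3 of 20 higher, 8 lower and 9 not called (median log2 fold change -0.42). *Fos* was at 1045, 954 and 880.2 CPM in GFP- cells and 907, 798 and 934 CPM in GFP+ (hi) cells and did not pass (-0.13, adjusted p = 0.405). *Nr4a1*, a nuclear receptor, fell by 1.87 ± 0.12, *Fosl1* by 1.97 ± 0.27 and *Fosb* by 0.80 ± 0.14.

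Markers of other cell types were read as whole lists. Of 18 cartilage genes 4 were higher, 8 lower and 6 not called (median log2 fold change -0.27). *Col2a1*, the main collagen of cartilage, was at 5021, 3377 and 6839 CPM in GFP- cells and 4606, 5933 and 5172 CPM in GFP+ (hi) cells and did not pass (0.04, adjusted p = 0.906), so this transcript was abundant on both sides of the sort. *Acan* (aggrecan), at 328, 269 and 299 CPM and 554, 971 and 434 CPM, rose by 1.13 ± 0.29, while *Lect1* (chondromodulin) fell from 79.3, 56.9 and 63 CPM to 5.4, 4.32 and 3.03 CPM, by 3.97 ± 0.23. Of 15 adipocyte and marrow stroma genes 11 were lower, 1 higher and 3 not called (median -1.49). *Plin4*, a lipid droplet protein, and *Kitl*, a niche factor of blood stem cells, fell by 3.73 ± 0.24 and 2.64 ± 0.23. The adipocyte hormone *Adipoq* was at 3.75, 3.3 and 2.88 CPM and 0.284, 0.83 and 0.0797 CPM, which is low in every library, and its log2 fold change of -3.02 was -4.17 without GFP+ (hi) replicate 2. Of 11 smooth muscle and pericyte genes 6 were lower, 3 higher and 2 not called (median -0.58). *Acta2*, smooth muscle actin, fell by 1.62 ± 0.28, while *Cspg4* (NG2) rose from 206, 198 and 185 CPM to 962, 1132 and 790.4 CPM (2.29 ± 0.15). *Rgs5*, a pericyte marker, rose by 5.38 ± 0.71 from at most 0.417 CPM (6.83 without GFP- replicate 3, and 4.79 without GFP- replicate 2).

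Most endothelial, erythroid and skeletal muscle markers did not pass the filter on low counts. The endothelial genes *Pecam1* (0.174, 0.0635 and 0.0464 CPM in GFP- cells and 0.284, 0.083 and 0 CPM in GFP+ (hi) cells) and *Cdh5* did not pass the filter, and of 12 endothelial genes listed 3 were tested, with 2 lower and 1 not called. Without GFP- replicate 1, GFP- replicate 2 or any 1 GFP+ (hi) library, 1 was lower. No erythroid gene of the 4 in the table was tested, and of 10 skeletal muscle genes 2 were tested, of which *Des* was higher (1.74 ± 0.34). Of 6 osteoclast genes tested 2 were lower (*Acp5* and *Mmp9*) and 4 not called, and *Calcr*, the calcitonin receptor of osteoclasts, had at most 0.371 CPM. Without GFP+ (hi) replicate 1 *Acp5* was no longer called (adjusted p = 0.0548), which left 1 osteoclast gene lower. Of 7 reference genes 1 was higher, 1 lower and 5 not called. *Actb* (-0.12), *Hprt* (-0.10) and *Tbp* (0.07) did not pass. *Gapdh*, a glycolytic enzyme often used as a reference, was at 1551, 1705 and 941 CPM and 2925, 3067 and 2146 CPM (0.96 ± 0.25, adjusted p = 0.0201), a call that ended without GFP+ (hi) replicate 1 or 2 (adjusted p = 0.0658 to 0.0705). *B2m* was called lower (-0.49, adjusted p = 0.0499) and was no longer called without any 1 library other than GFP- replicate 3 (adjusted p = 0.0722 to 0.147). The ribosomal RNA precursor *Rn45s* took 8.01 to 12.5% of counts over all libraries and was not called (0.63, adjusted p = 0.0864, and 0.0432 with a block for the replicate number).

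**Figure D5:**
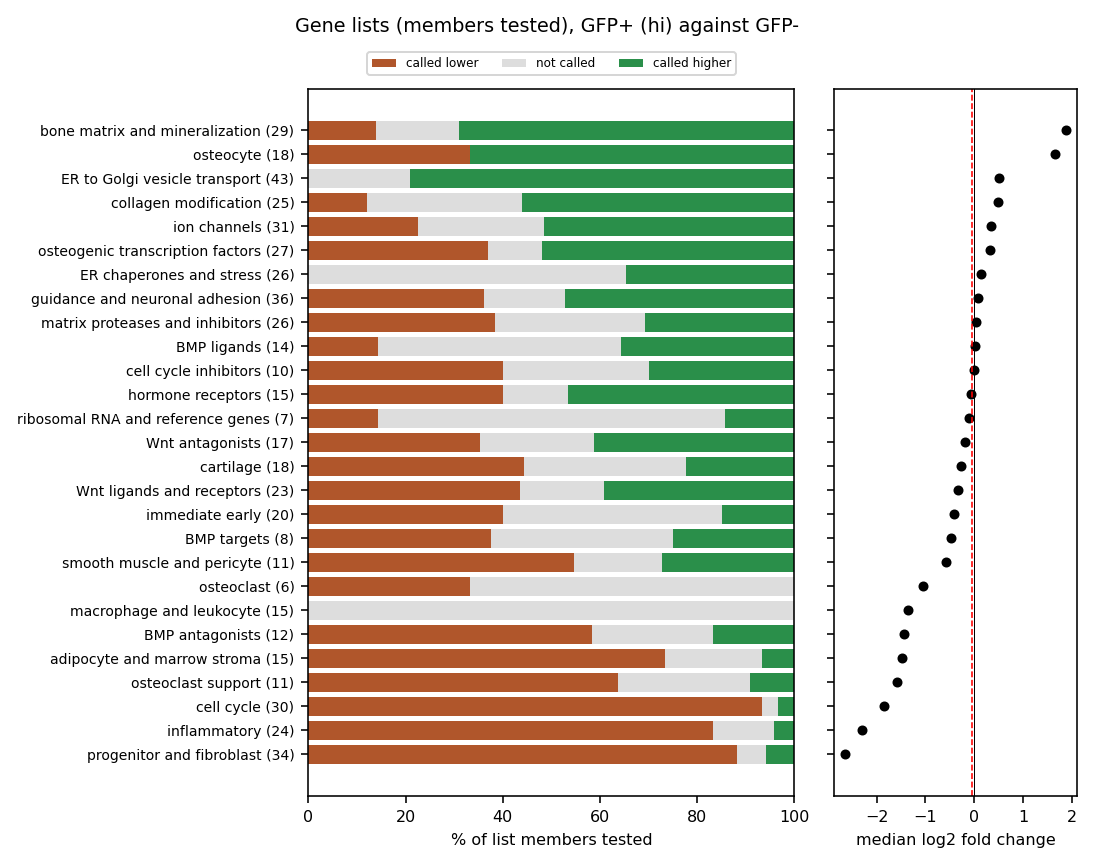
Share of tested members called lower (brown), not called (grey) and called higher (green) for each list with at least 6 members tested, and the median log2 fold change of the list beside it. The number tested is in parentheses and the dashed line is the median of all genes tested, -0.04. Bone matrix and osteocyte lists are at the top, and inflammatory and progenitor lists at the bottom.

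The remaining genes with the largest changes, among those called with non-overlapping groups and at least 10 CPM in the higher group, had several functions. On the side of the rises, *Col22a1* and *Col13a1*, collagens of tissue junctions and cell membranes, were at 12, 21.5 and 11.2 CPM and 4.36, 8.25 and 4.22 CPM in GFP- cells and at 531, 458 and 567 CPM and 184, 172 and 252 CPM in GFP+ (hi) cells. Their log2 fold changes were 5.12 ± 0.29 and 5.17 ± 0.32. *Lipc*, hepatic lipase, was at 0.61, 3.05 and 1.86 CPM and 73.2, 69.6 and 93.5 CPM (5.36 ± 0.41). *Gal*, the neuropeptide galanin, was at 0.61, 1.84 and 0.371 CPM and 36.9, 27.6 and 42.6 CPM (5.26 ± 0.48). *Edn2* (endothelin 2) rose by 5.06 ± 0.42, *Cbfa2t3*, a transcriptional corepressor of blood cells, by 5.46 ± 0.31, and *Spock1*, a proteoglycan, by 5.17 ± 0.41. *Btla*, a receptor better known from lymphocytes, was at 0.784, 1.71 and 1.48 CPM and 54.3, 39.3 and 62.8 CPM (5.24 ± 0.29). *Sgca*, a sarcoglycan of muscle membranes, and *Cox8b*, a subunit of cytochrome oxidase in muscle and brown fat, rose by 5.09 ± 0.23 and 5.12 ± 0.47. *AU021092* rose by 5.46 ± 0.64. The log2 fold changes of *AU021092*, *Cox8b*, *Edn2*, *Gal* and *Spock1* moved by more than 1.5-fold with 1 library: they were 7.07 without GFP- replicate 2, 5.85 without GFP- replicate 2, 5.84 without GFP- replicate 2, 6.25 without GFP- replicate 2 and 5.85 without GFP- replicate 2.

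On the side of the falls, *Penk*, the precursor of enkephalins, was at 1511, 1415 and 561 CPM in GFP- cells and 58.1, 96.9 and 18 CPM in GFP+ (hi) cells and fell by 4.33 ± 0.69 (adjusted p = 0.0025). Replicate 3 was the lowest of both groups, and the log2 fold change was -4.93 without GFP+ (hi) replicate 2. *Ltbp2*, a protein of elastic microfibrils, fell by 4.26 ± 0.35, and *Fbn2* (fibrillin 2) fell by 4.43 ± 0.33. *Trabd2b* (Tiki2), a membrane protease that inactivates Wnt proteins, was at 91, 59 and 88.3 CPM and 2.93, 2.41 and 1.75 CPM and fell by 5.08 ± 0.26. *Galnt9*, a glycosyltransferase, fell by 5.49 ± 0.64. *Hmga2*, a chromatin protein of embryonic and growing cells, was at 44.2, 41.6 and 52.4 CPM and 2.27, 3.07 and 1.44 CPM and fell by 4.35 ± 0.24, and the imprinted long noncoding RNA *Meg3* by 4.28 ± 0.20. *Angptl7*, *Ism1* (isthmin), *Cilp* of cartilage, and the growth factors *Bdnf* and *Nrg1* fell by 4.35 ± 0.43, 4.27 ± 0.26, 4.29 ± 0.37, 4.29 ± 0.21 and 4.45 ± 0.43. *Crispld1*, *Crispld2* and *Col14a1* fell by 4.6 ± 0.29, 4.57 ± 0.25 and 4.51 ± 0.38, and *Itih5* by 4.28 ± 0.40. All 40 genes of this size rule kept their calls and directions under each of 13 other settings, with an adjusted p of at most 0.0171 (*Penk*). They were picked from the same libraries as called, separated and largest, so this is largely a result of the selection and no separate evidence.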

How the data were processed

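RNA of sorted bone chip culture cells was sequenced from both ends after poly-A selection. For alignment the authors used STAR 2.4.2a on mm9, and for testing DESeq2 in R 3.2.2. The deposited table holds whole, not normalized counts per RefSeq gene. The counting tool, its strand setting and its treatment of reads that match several places are not given in the sources used here. The count tables of the other sources were not used here.

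For the 6 libraries edgeR 4.0.16 (R 4.3.3) was used: low genes were removed (filterByExpr, minimum count 10), libraries scaled by TMM and groups compared by glmQLFit and glmQLFTest with no covariate and Benjamini-Hochberg adjustment. Other settings tried were upper-quartile and RLE factors, DESeq2 1.42.0, other filters, a test against a log2 fold change of 1, *Rn45s* left out, a replicate block and each library left out.

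Replicate numbers come from the titles. Residuals of same-numbered libraries correlated at 0.175, 0.347 and 0.408, and those of differently numbered libraries at -0.379 to -0.003. The sources state no pairing, so the main fit was unpaired and the replicate block was an alternative. Values with the block are given where they change the call of a named gene or move a count by over 1.5 times.

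The samples and the 30 gene lists (620 entries, 604 in the table) were chosen with earlier results of these data known. Genes named are the markers, *Col1a1*, list members, and the 20 largest rises and 20 largest falls among genes called, with non-overlapping groups and at least 10 CPM in the higher group, leaving out clones, predicted genes, miRNA and snoRNA hosts and Y-linked genes. On simulated data with 12695 genes the test recovered 53 of 99 genes changed by 1 and 85 of 95 changed by 2 on the log2 scale. It also made 9 false calls. A far smaller share of genes was changed there than was called in the bone chip libraries, so these rates may not hold for this comparison. Python 3.11.15 with matplotlib 3.10.9 and pandas 2.3.3 made the plots and tables. Promoters are those of RefSeq, and gene positions those of GENCODE vM1. Values of some single genes are not reported here.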

Additional observations from a re-analysis of the deposited data

How the results depend on the processing

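The counts of genes called held within 1.5 times of 2614 higher and 2967 lower under DESeq2 (2586 and 2747), RLE factors (2727 and 2845), upper-quartile factors (2564 and 3004), no filter (2611 and 3070), a filter at 1 CPM in 3 libraries (2587 and 2928) and without *Rn45s* (2616 and 2963). Leaving out 1 library gave 2006 to 2848 higher and 2198 to 3084 lower. With the replicate block 2709 were higher and 3077 lower, of which 5319 were called the same way without it, and the block changed no count of a list by over 1.5 times other than the BMP ligands, the endothelial genes (1 lower) and the reference genes (2 higher). Among 564 genes in the lists or the size rule it ended 6 calls and added 19. No scaling moved the median of all genes by over 0.1.

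Against a log2 fold change of 1, 679 genes were higher and 916 lower. This stricter test left 3 osteocyte genes lower, 1 progenitor gene higher, 18 cell cycle genes lower and 0 higher. Leaving out 1 library gave 1 to 2 progenitor genes higher and 0 to 1 cell cycle genes higher. The log2 fold changes of *C1qa*, *Csf1r*, *Emr1* and *Lyz2* ran from -1.81 to 0.80, -1.88 to 0.80, -1.55 to 0.99 and -1.66 to 0.72 as 1 library was left out, and were above 0 without GFP- replicate 2. Of 420 such genes called, 353 kept their call under all 13 settings that test for any difference.

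The limits lie in the depth, which left genes such as *Fgf23* untested, and in the design. On simulated data, in which few genes were changed, 53 of 99 genes changed by 1 on the log2 scale were recovered. The recovery in these libraries is not known from this, and a missed call does not show that a gene did not differ. The sort compares brightness, and the share of each cell type in it was not measured.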
